A study of Caenorhabditis elegans with 12 samples.

Results

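Of 4474 genes whose poly(A) tails were measured in every library of this series of Caenorhabditis elegans embryos, 232 (5.19%) had shorter tails when the cytoplasmic poly(A) polymerase GLD-2 and its partner GLD-3 were depleted. They were chosen on those tails. A gene had to have a tail value and at least 30 reads in all 12 libraries, each library's median tail over such genes was subtracted, and the mean of the 4 gld-2 RNAi and gld-3 RNAi libraries had to lie at least 6 nt below the mean of the other 8. The gene tables list 31753 features in all. Tail differences between the GLD knockdowns and the other groups are therefore a description here, with no test.

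Embryos of 6 groups were compared, with 2 libraries in each: worms fed bacteria making double-stranded RNA against gld-2, gld-3, pos-1 or mex-5, worms with the mex-6(pk440) allele, and wild-type N2. The protocols name E. coli HT115(DE3) for RNAi of N2 worms and E. coli OP50 for growth. They are given in the same words for every sample, so the food of each is read from that wording; read so, food and knockdown change together in each comparison of an RNAi group with N2. Table columns for the mex-6 libraries carry the word RNAi where their titles give the allele, and the titles were followed. The labels describe the embryos as more than 90% from the zygote to the 24-cell stage, and do not say that the replicates came from separate cultures, so p-values measure only the spread between these libraries. RNA was profiled by PAT-seq, which tags adenylated RNA at its 3′ end, cuts it with RNase T1 and reads both the site of polyadenylation and the length of the tail. Reads on genes numbered 4613974 to 10229871 a library, and library median tails ran from 40.3 to 46.5 nt. The targeted gene was low in its own group in every case: gld-2 had 5.54 and 3.31 CPM (reads scaled to a common library size) in gld-2 RNAi, against 12.3 and 8.30 CPM in N2, the smallest margin, and gld-3 had 8.46 and 9.27 CPM in gld-3 RNAi, against 105 and 104 CPM in N2. The mex-5 RNAi libraries were also low in the related gene mex-6, with 24.0 and 14.9 CPM, against 205 and 244 CPM in N2 and 139 to 194 CPM in the other RNAi groups, so the parts of mex-5 and mex-6 in their differences cannot be told apart.

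GLD-2 is a poly(A) polymerase of the cytoplasm that has no RNA-binding domain of its own and is brought to its targets by partner proteins, of which the KH-domain protein GLD-3 is the best known. In the germ line, and in the early embryo where transcription is largely silent, lengthening of the tail of a stored maternal mRNA is a known route to its translation. Deadenylases oppose it. The CCCH zinc finger proteins POS-1, MEX-5 and MEX-6 bind the 3′ untranslated regions of maternal mRNAs and are themselves spread unequally along the axis of the zygote. Knockdown of pos-1 or mex-5 was thus measured beside loss of the polymerase, and POS-1 is known to oppose polyadenylation of neg-1, a maternal gene that holds back endoderm and mesoderm fates in anterior cells.

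Differences of the 232 genes from the other groups ran from -16.9 to -6.004 nt, with a median of -7.42 nt, against a median of -0.13 nt over all 4474 genes. The median of their mean tails was 42.2 nt with gld-2 RNAi, 39.7 nt with gld-3 RNAi, 49.8 nt with pos-1 RNAi, 47.9 nt with mex-5 RNAi, 45.6 nt with mex-6(pk440) and 46.5 nt in N2. Over the 4242 genes not kept it was 45.7 nt with gld-2 RNAi, 44.5 nt with gld-3 RNAi, 44.9 nt with pos-1 RNAi, 44.1 nt with mex-5 RNAi, 42.0 nt with mex-6(pk440) and 42.1 nt in N2. An opposite set of 189 genes (4.22%) was at least 6 nt longer in the GLD knockdowns. The arid-1, C11D2.4 and F29B9.11 transcripts stood just inside the threshold at -6.004, -6.005 and -6.008 nt, and F14H3.6, T23F11.4 and Y50D4C.6 just outside it at -5.99, -5.97 and -5.97 nt.

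**Figure D1:**
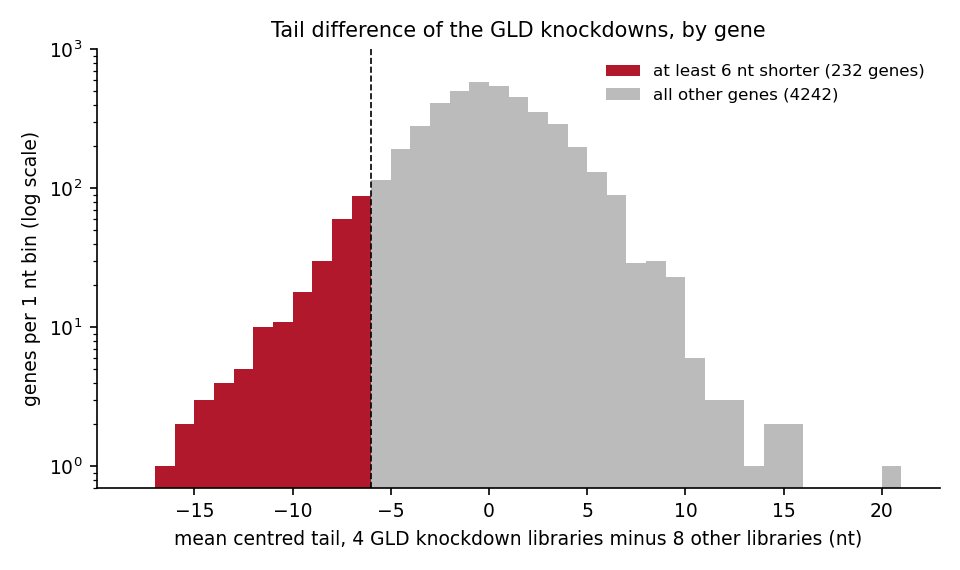
Histogram of the difference in library-centred mean tail (x axis, nt) between the 4 GLD knockdown libraries and the 8 other libraries for 4474 genes; the y axis counts genes per 1 nt bin on a log scale. The 232 genes in red lie left of the dashed line at 6 nt shorter, and the distribution runs on without a gap across it.

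All 232 genes were shorter on average in each knockdown, but not to the same degree in each. In gld-2 RNAi their differences from the other groups ran from -15.8 to -1.32 nt, with a median of -7.55 nt, and in gld-3 RNAi from -20.4 to -1.16 nt, with a median of -8.29 nt. The drop reached 6 nt in both knockdowns for 120 genes, in gld-2 RNAi alone for 46 and in gld-3 RNAi alone for 66. After centring, all 4 GLD knockdown libraries lay below all 8 others for 72 genes (31.03%), and the same held for 114 of the 4474 genes (2.55%). That count rests on the tails that chose the genes, as does the name of the set, which holds in sign for every gene and at the full 6 nt in both knockdowns for 120.

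How the choice varied between replicates is described here without a test. The labels do not say that the replicates came from separate cultures. Among the 4474 genes, choosing on the first replicate of every group gave 256 genes, of which 218 (85.2%) were also below 0 in the other replicate, where 52.6% of all 4474 genes were. Their median drop there was -6.01 nt, and 50.4% reached 6 nt, against 9.25% of all genes. Choosing on replicate 2 gave 414 genes, of which 78.0% were below 0 in replicate 1, against 49.6% of all genes, with a median of -3.80 nt, and 31.2% reached 6 nt, against 5.72% of all genes.

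**Figure D2:**
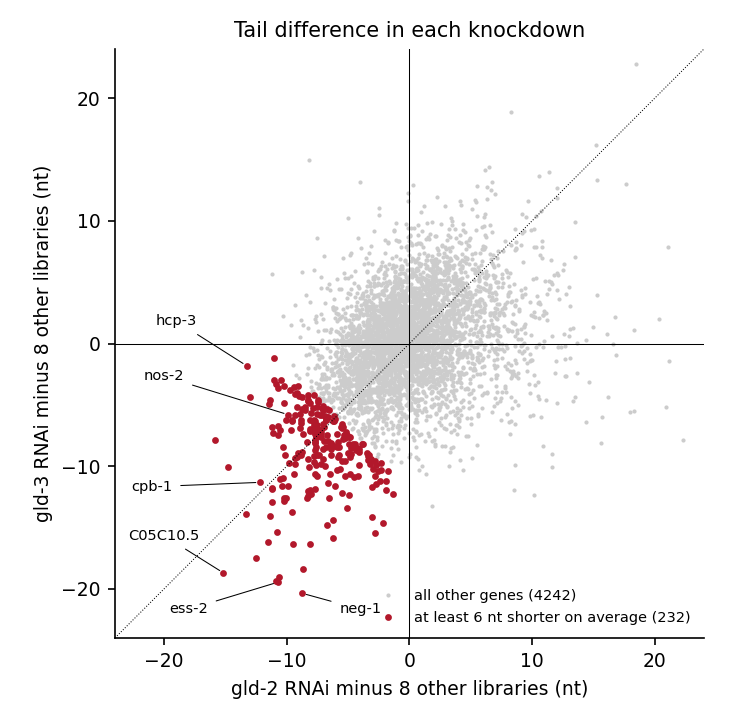
Difference in library-centred mean tail from the 8 other libraries in gld-2 RNAi (x axis, nt) and in gld-3 RNAi (y axis, nt), 1 point per gene; the dotted line marks equal differences. The 232 chosen genes (red) all lie in the lower left, with neg-1 and ess-2 lowest in gld-3 RNAi and hcp-3 near 0 in gld-3 RNAi; both axes share the same 8 libraries.

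The gene with the largest drop was C05C10.5, on chromosome II from 9939168 to 9939955 (ce10, plus strand), for which no function is given in the annotation. Its deposited mean tails were 38.5 and 41.4 nt with gld-2 RNAi, 36.5 and 34.1 nt with gld-3 RNAi, 56.9 and 58.3 nt with pos-1 RNAi, 50.01 and 48.1 nt with mex-5 RNAi, 53.2 and 55.5 nt with mex-6(pk440), and 53.95 and 48.4 nt in N2. The 4 GLD knockdown libraries were the lowest and did not overlap any other.

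Among genes with a symbol the largest drops after memi-1, ess-2 and era-1 (-15.1, -15.1 and -14.98 nt) were those of neg-1 (-14.6 nt), gex-5 (-13.9 nt), cblc-1 (-13.6 nt), which processes vitamin B12, and rde-3 (-12.9 nt), also called mut-2, a nucleotidyltransferase of the RNAi pathway. Then came the mitochondrial carrier ucp-4 (-12.7 nt), the Golgi tethering subunit cogc-5 (-12.2 nt), the Skp1-related gene skr-17 (-12.1 nt), cpb-1 (-11.8 nt), the TORC2 subunit sinh-1 (-11.6 nt), memi-2 (-11.6 nt), zif-1 (-11.4 nt) and the ubiquitin ligase rnf-5 (-11.3 nt). These cover maternal regulators and genes of general metabolism and transport alike.

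The related genes memi-1 and memi-2 encode maternal proteins needed for meiosis in the fertilised oocyte. Tails of memi-2 averaged 26.4 and 25.0 nt with gld-2 RNAi, 24.2 and 23.6 nt with gld-3 RNAi, 38.2 and 34.9 nt with pos-1 RNAi, 39.99 and 44.7 nt with mex-5 RNAi, 29.7 and 30.8 nt with mex-6(pk440), and 31.4 and 29.6 nt in N2. No GLD knockdown library reached any of the other 8. For memi-1 the tails were 27.4 and 39.5 nt with gld-2 RNAi and 22.7 and 24.8 nt with gld-3 RNAi, against 38.8 and 38.9 nt in N2, so that gld-2 RNAi replicate 2 overlapped N2 on the deposited scale, and only 34 reads lay in its lowest library. Reads of these near copies may be shared between them, as may those of puf-11 and puf-3, cyb-2.1 and cyb-2.2, and mex-5 and mex-6. In mex-6(pk440), mex-6 had 7.03 and 3.07 CPM, where mex-5 had 406 and 335 CPM. Sharing of reads was not tested.

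The splicing-associated gene ess-2 had tails of 46.6 and 51.2 nt with gld-2 RNAi, 38.5 and 39.6 nt with gld-3 RNAi, 63.5 and 67.8 nt with pos-1 RNAi, 52.7 and 53.2 nt with mex-5 RNAi, 51.9 and 54.5 nt with mex-6(pk440), and 55.5 and 61.6 nt in N2. Its gld-3 RNAi libraries stood clearly lowest, while gld-2 RNAi replicate 2 came close to mex-6(pk440) replicate 1. The maternal transcript of era-1 is enriched in anterior blastomeres. It had 45.4 and 45.5 nt with gld-2 RNAi, 36.2 and 42.6 nt with gld-3 RNAi, 66.9 and 64.6 nt with pos-1 RNAi, 44.8 and 53.0 nt with mex-5 RNAi, 47.3 and 56.9 nt with mex-6(pk440), and 59.9 and 54.1 nt in N2. Both pos-1 RNAi libraries were the longest for era-1, and mex-5 RNAi replicate 1 fell among the GLD knockdowns.

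Of the 6 genes the study is built on, neg-1, pos-1 and mex-5 were in the set. Tails of gld-3 differed by -2.29 nt, and gld-2 and mex-6 had under 30 reads in at least 1 library. The neg-1 gene (chromosome V, 4373912 to 4374832, minus strand) had tails of 35.2 and 40.7 nt with gld-2 RNAi, 25.6 and 24.8 nt with gld-3 RNAi, 51.8 and 45.5 nt with pos-1 RNAi, 37.4 and 45.4 nt with mex-5 RNAi, 43.1 and 46.2 nt with mex-6(pk440), and 46.7 and 41.0 nt in N2. The pos-1 RNAi libraries of neg-1 overlapped those of N2, and that difference did not pass in limma. Both gld-3 RNAi libraries were far below all others, whereas gld-2 RNAi replicate 2 overlapped a mex-5 RNAi library. The next member on that strand, F32D1.7 (4375124 to 4376153), lies 292 bp from it and dropped by 11.5 nt. It was the closest of 8 pairs of chosen genes within 5000 bp of each other, ahead of pole-2 and snrp-3 (365 bp) and of cpb-3 and glh-3 (858 bp).

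For pos-1 itself (chromosome V, 8414074 to 8414920, plus strand) tails were 44.6 and 47.0 nt with gld-2 RNAi, 37.96 and 43.1 nt with gld-3 RNAi, 48.2 and 47.9 nt with pos-1 RNAi, 55.9 and 64.7 nt with mex-5 RNAi, 48.9 and 52.1 nt with mex-6(pk440), and 53.8 and 44.6 nt in N2. The GLD libraries overlapped N2 replicate 2 as deposited and lay below all others after centring. In pos-1 RNAi the value comes from the 1182 and 248 reads left of the targeted transcript. For mex-5 (chromosome IV, 13353706 to 13355519, plus strand) they were 46.0 and 46.7 nt with gld-2 RNAi, 39.1 and 43.0 nt with gld-3 RNAi, 56.6 and 54.9 nt with pos-1 RNAi, 40.9 and 49.8 nt with mex-5 RNAi, 49.9 and 57.3 nt with mex-6(pk440), and 56.5 and 50.1 nt in N2. Outside mex-5 RNAi, where 237 and 138 reads of the targeted transcript were left, no library overlapped the GLD knockdowns.

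**Figure D3:**
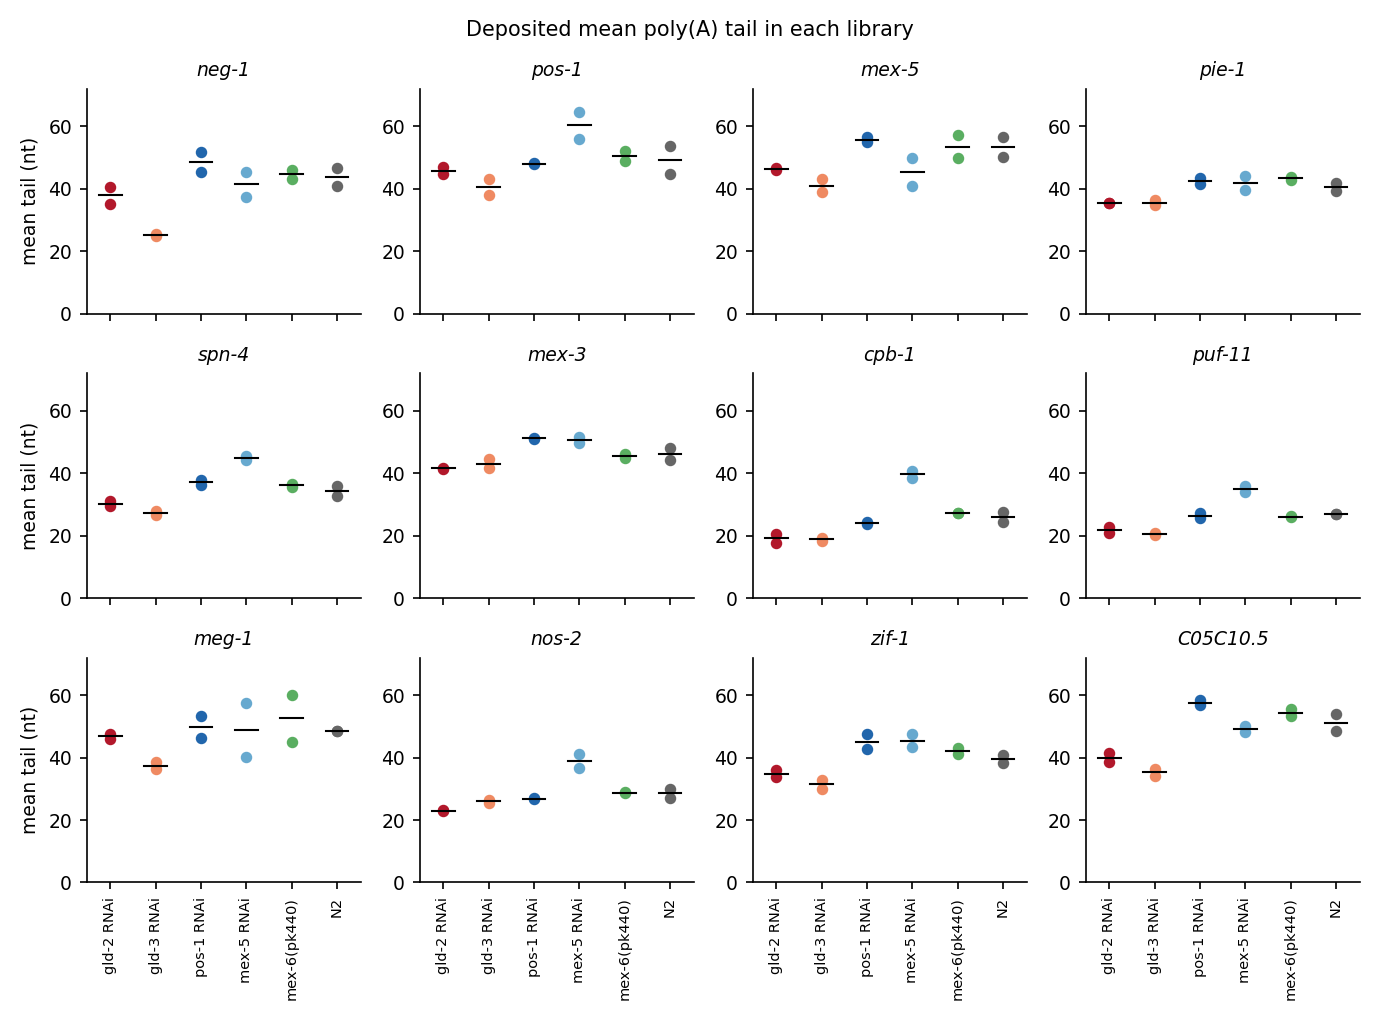
Deposited mean poly(A) tail (y axis, nt) of 12 genes of the set in each of the 12 libraries (points), by group along the x axis, with the mean of each group of 2 as a bar. On this deposited scale the GLD knockdown libraries are lowest for spn-4, cpb-1, puf-11, nos-2, zif-1, C05C10.5 and others, while mex-5 RNAi stands highest for pos-1, spn-4, cpb-1, puf-11 and nos-2. After centring those of nos-2 overlap pos-1 RNAi.

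Among CCCH zinc finger genes of the oocyte and embryo, 4 of the 6 that could enter were in the set. Besides pos-1 and mex-5 these were pie-1 (-8.04 nt), which silences transcription in the germ lineage, and the oocyte maturation gene oma-2 (-6.36 nt). Its close relative oma-1 differed by -4.21 nt and moe-3 by 2.25 nt. Tails of pie-1 were 35.3 and 35.5 nt with gld-2 RNAi and 34.7 and 36.5 nt with gld-3 RNAi, against 41.8 and 39.3 nt in N2, and the other 6 libraries ranged from 39.5 to 44.2 nt. The GLD libraries of pie-1 were below every other.

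Of the 10 KH, RRM and TRIM translational regulators that could enter, 4 were in the set. The RRM protein gene spn-4, which controls translation and spindle orientation in the early embryo, had 31.01 and 29.5 nt with gld-2 RNAi, 26.8 and 28.0 nt with gld-3 RNAi, 36.3 and 37.9 nt with pos-1 RNAi, 44.1 and 45.5 nt with mex-5 RNAi, 36.7 and 35.6 nt with mex-6(pk440), and 35.9 and 32.7 nt in N2. Its groups did not overlap between the GLD knockdowns and the rest, and mex-5 RNAi stood above all. The 2 larger polyadenylation peaks of spn-4 were also measured separately, with differences of -10.79 and -11.01 nt. The KH-domain genes mex-3 and gld-1 differed by -7.54 and -6.94 nt, and the DAZ-family gene daz-1 by -6.19 nt. The list as a whole had a median of -2.68 nt, and etr-1, the other extreme, was 6.81 nt longer.

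Cytoplasmic polyadenylation factors were represented by the CPEB-family genes cpb-1 (-11.8 nt) and cpb-3 (-9.02 nt), out of 6 listed genes with values. Tails of cpb-1 were among the shortest of the set at 20.5 and 17.7 nt with gld-2 RNAi, 19.3 and 18.3 nt with gld-3 RNAi, 23.7 and 24.2 nt with pos-1 RNAi, 38.4 and 40.8 nt with mex-5 RNAi, 27.4 and 27.1 nt with mex-6(pk440), and 27.7 and 24.4 nt in N2. All 4 GLD libraries lay below every other, and mex-5 RNAi was again highest. The other 4 listed genes, gld-3, gls-1, rnp-8 and fog-1, differed by -2.29, -1.77, -0.45 and -0.91 nt. Of 10 deadenylase and poly(A)-binding protein genes none was in the set, and their median was -1.31 nt.

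The Pumilio-family gene puf-11 was in the set (-8.95 nt), 1 of 7 in that family, with puf-7 just short of the threshold at -5.85 nt. It had 22.6 and 20.8 nt with gld-2 RNAi, 20.2 and 20.8 nt with gld-3 RNAi, 27.2 and 25.5 nt with pos-1 RNAi, 34.1 and 35.8 nt with mex-5 RNAi, 26.2 and 26.0 nt with mex-6(pk440), and 26.9 and 26.8 nt in N2. The GLD libraries were lowest and mex-5 RNAi highest.

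P granule and germ lineage genes contributed 4 of 13: meg-1 (-9.27 nt), an intrinsically disordered P granule protein gene, the nanos homologue nos-2 (-7.85 nt), mes-1 (-7.31 nt), which orients divisions of the germ lineage, and the Vasa-related helicase gene glh-3 (-6.64 nt). For nos-2 tails were 23.2 and 22.7 nt with gld-2 RNAi, 25.6 and 26.3 nt with gld-3 RNAi, 26.7 and 27.0 nt with pos-1 RNAi, 36.7 and 41.3 nt with mex-5 RNAi, 28.8 and 28.6 nt with mex-6(pk440), and 30.1 and 27.2 nt in N2. As deposited, the GLD libraries were lowest, with those of gld-3 RNAi close under pos-1 RNAi, and mex-5 RNAi stood far above the rest. After centring, gld-3 RNAi replicate 1 lay above both pos-1 RNAi libraries, so the GLD libraries of nos-2 were not separate. Its 3 polyadenylation peaks differed by -4.60, -8.50 and -9.82 nt. For meg-1 the gld-3 RNAi libraries had 38.5 and 36.2 nt, but the gld-2 RNAi libraries, with 47.6 and 46.1 nt, lay just below N2 (48.5 and 48.4 nt) and between the mex-5 RNAi libraries (40.4 and 57.4 nt).

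Genes of the oocyte-to-embryo transition contributed 3 of 13. The largest drop was that of zif-1, the adaptor that directs CCCH proteins to degradation in somatic cells, with 33.8 and 35.9 nt with gld-2 RNAi, 30 and 32.8 nt with gld-3 RNAi, 42.7 and 47.5 nt with pos-1 RNAi, 43.3 and 47.5 nt with mex-5 RNAi, 41.3 and 43.2 nt with mex-6(pk440), and 41.0 and 38.2 nt in N2. The GLD libraries of zif-1 were below every other. The others were mel-26 (-6.50 nt), which removes the meiotic katanin, and the MAP kinase gene mpk-1 (-6.41 nt). The B-type cyclins cyb-2.1 (-7.55 nt) and cyb-2.2 (-7.06 nt) were 2 of 13 cell-cycle regulators, the polarity gene par-6 (-7.34 nt) and mex-5 were 2 of 8 polarity genes, and the Notch ligand gene apx-1 (-6.99 nt) was 1 of 13 maternal signalling genes. The centromeric histone gene hcp-3 was 1 of 25 kinetochore, centrosome and spindle genes, and it dropped by 13.3 nt with gld-2 RNAi and by 1.81 nt with gld-3 RNAi. Its gld-3 RNAi tails were 36.5 and 56.1 nt, far apart.

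Of 54 ribosomal protein genes with values 53 were below 0, with a median of -3.03 nt, but rps-25 (-6.18 nt) alone passed 6 nt, and its libraries overlapped across groups. None of the 11 genes listed with CGH-1, CAR-1 and the Y-box proteins, the 6 eggshell and oocyte surface genes, the 6 larval and late embryo tissue markers and the 3 early zygotic endomesoderm genes was in the set. No sperm marker had enough reads to enter.

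Features of the genes that the rule did not use are given as medians and shares. The annotated 3′ untranslated region had a median of 232 nt for the 227 chosen genes with a value and 204 nt over the genes that could enter, and the coding length 1198.5 and 1215 nt. Reads in the lowest library had a median of 96 for the set and 110 for all genes, and 119 of the 232 (51.3%) had under 100 there. Tails in the 8 other libraries had a median of 47.4 nt for the set and 43.6 nt for all genes, a measure the rule used. The set held 147 genes with a symbol, 4 noncoding features and 2 features that merge coding genes. Chromosome X carried 11 of the genes (4.74%) and 11.8% of all genes, while chromosomes II and IV carried 20.7% each, against 17.7% and 15.7% of all genes. In all 12 libraries the 232 genes held 1.18 to 2.08% of gene reads.

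Most chosen genes ended at 1 measured polyadenylation peak (65.9%, against 63.6% of all genes). Of their 343 peaks 216 had enough reads to be measured alone. Peak tails come from the reads behind the gene tails that chose the set, so they are a description. Where a gene had 2 or more measurable peaks (17 genes), all peaks were shorter in 14 and all were shorter by at least 6 nt in 3. The main peak of the 79 genes with several peaks held a median of 77.0% of peak reads in the GLD knockdowns and 77.6% in the other groups. It differed by over 10 percentage points in 6 genes. The era-1 main peak held 48.5% of its reads in the GLD knockdowns and 62.1% in the other groups. For F49E2.5 it held 33.5% and 43.6%, and its downstream main peak alone differed by -3.43 nt, beside a gene-level difference of -6.39 nt.

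The GLD-2 and GLD-3 knockdowns were then set against each other, a difference that the mean of both groups did not use. No gene of the set differed in tail between gld-3 RNAi and gld-2 RNAi after Benjamini-Hochberg adjustment in limma over all 4474 genes, where 1.43% of genes passed. At an unadjusted p under 0.05 there were 34 (14.7% of the set, and 14.8% of all genes). Their median difference was -1.21 nt, against 0.54 nt over all genes, and 143 of the 232 were shorter in gld-3 RNAi. With log2 tails 2 genes passed, and 2 passed without gld-3 RNAi replicate 1.

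The largest such difference towards gld-3 RNAi was that of znf-598 (-12.6 nt), whose homologues sense stalled ribosomes in mammals, followed by C35B1.5 (-12.5 nt) and neg-1. For neg-1 the difference was -11.6 nt with an SE of 3.32 nt and an adjusted p of 0.126 in limma, although both gld-3 RNAi libraries (25.6 and 24.8 nt) were below both gld-2 RNAi libraries (35.2 and 40.7 nt). In the other direction stood hcp-3 (11.5 nt), C32D5.10 (9.85 nt) and Y42H9B.3 (8.63 nt). The lipid phosphatase gene daf-18 differed by -9.31 nt, with 39.8 and 42.6 nt with gld-3 RNAi and 47.5 and 55.7 nt with gld-2 RNAi. The opposite held for picc-1, with 39.8 and 45.5 nt with gld-3 RNAi and 37.1 and 36.9 nt with gld-2 RNAi. Neither gene passed, and in each the groups did not overlap. The test had limited reach: in data simulated on these libraries it found 32 of 100 genes changed by 10 nt and 82 of 100 changed by 20 nt.

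Some tails of the set differed between the pos-1 and mex-5 knockdowns, both given by the same feeding method. Between pos-1 RNAi and mex-5 RNAi 34 of the 232 genes differed in limma (14.7%), 16 longer and 18 shorter after the pos-1 knockdown. Of all genes 3.58% passed, 2.01% longer and 1.56% shorter. The median absolute difference was 5.52 nt in the set and 2.90 nt over all genes. Both groups are among the 8 libraries that the rule averaged, and genes with a larger spread between groups reach 6 nt more easily, so the share is given beside the background and not as a property of the set. Nor does such a call support the place of a single gene in the set, since its values helped to choose it. The counts fell to 11 without pos-1 RNAi replicate 1, 11 without pos-1 RNAi replicate 2, 15 without mex-5 RNAi replicate 1 and 25 without mex-5 RNAi replicate 2, and 10 genes passed in each of those fits.

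Tails shorter after the pos-1 knockdown than after that of mex-5 included those of several RNA-binding regulators, chosen as examples after their values were seen. These were nos-2, cpb-1, puf-11, daz-1, oma-2, spn-4, gld-1 and the La-related protein gene larp-5, and over all 18 genes tails in the 8 non-GLD libraries had a median of 36.7 nt. The 16 longer genes, among them the adenosine deaminase-like gene adal-1, the CDC-48 cofactor gene ubxn-6, the Numb homologue num-1 and era-1, had a median of 56.1 nt there. On the lists used here, 3 of the 4 chosen KH, RRM and TRIM regulators were shorter in pos-1 RNAi, as were 2 of the 4 chosen CCCH genes, pos-1 and oma-2, while mex-5 was longer. The values of pos-1 and mex-5 include those of the targeted transcript itself.

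For nos-2 tails were 26.7 and 27.0 nt with pos-1 RNAi and 36.7 and 41.3 nt with mex-5 RNAi, a centred difference of -12.9 nt (SE 1.76 nt, limma adjusted p = 0.0023) that passed whichever library was left out. The RNAi groups did not overlap, and as deposited the pos-1 RNAi libraries were close to N2 (30.1 and 27.2 nt). The high nos-2 tails in mex-5 RNAi also raised the mean of the 8 libraries that the rule used. This call therefore draws on values that admitted nos-2 to the set. For cpb-1 tails were 23.7 and 24.2 nt with pos-1 RNAi and 38.4 and 40.8 nt with mex-5 RNAi, a difference of -16.5 nt (SE 2.78 nt, adjusted p = 0.00664). It did not pass when either pos-1 RNAi library was left out, with limma adjusted p up to 0.0693. Calls of spn-4 (-8.54 nt), puf-11 (-9.39 nt) and oma-2 (-9.03 nt) did not pass when either pos-1 RNAi library or mex-5 RNAi replicate 1 was left out, with adjusted p up to 0.132, 0.140 and 0.132. Those of gld-1 (-8.13 nt), uba-1 (-10.3 nt), the ubiquitin-activating enzyme, and num-1 (11.7 nt) were lost whichever of the 4 libraries was left out, as were those of daz-1 and larp-5. Those of pos-1 and mex-5 were lost without either pos-1 RNAi library, and that of mex-5 also without mex-5 RNAi replicate 1.

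In the other direction adal-1 had 78.4 and 80.3 nt with pos-1 RNAi and 51.1 and 59.1 nt with mex-5 RNAi, a difference of 23.4 nt (SE 2.94 nt, limma adjusted p = 0.00126). Its pos-1 RNAi libraries were above all others, while its mex-5 RNAi libraries lay on either side of the GLD knockdowns, which had 56.8 and 58.2 nt with gld-2 RNAi and 54.5 and 55.9 nt with gld-3 RNAi. The uncharacterised gene F08F3.6 was also longest in pos-1 RNAi, with 54.3 and 55.3 nt with pos-1 RNAi and 35.1 and 38.5 nt with mex-5 RNAi (17.2 nt, SE 1.97 nt, adjusted p = 0.000627), beside 37.4 and 37.8 nt with gld-2 RNAi, 34.6 and 37.2 nt with gld-3 RNAi, and 51.5 and 45.7 nt in N2. So were ubxn-6, with 72.4 and 73.2 nt with pos-1 RNAi and 52.4 and 54.9 nt with mex-5 RNAi (18.3 nt, SE 2.04 nt, adjusted p = 0.000627), and the neg-1 neighbour F32D1.7, with 67.5 and 66.0 nt with pos-1 RNAi and 52.7 and 51.1 nt with mex-5 RNAi (14.0 nt, SE 1.97 nt, adjusted p = 0.00235). These calls of adal-1, F08F3.6, ubxn-6 and F32D1.7 passed whichever library was left out. For era-1 the difference was 16.0 nt (SE 2.70 nt, adjusted p = 0.00664), lost without pos-1 RNAi replicate 1 or mex-5 RNAi replicate 1 (adjusted p up to 0.0859).

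**Figure D4:**
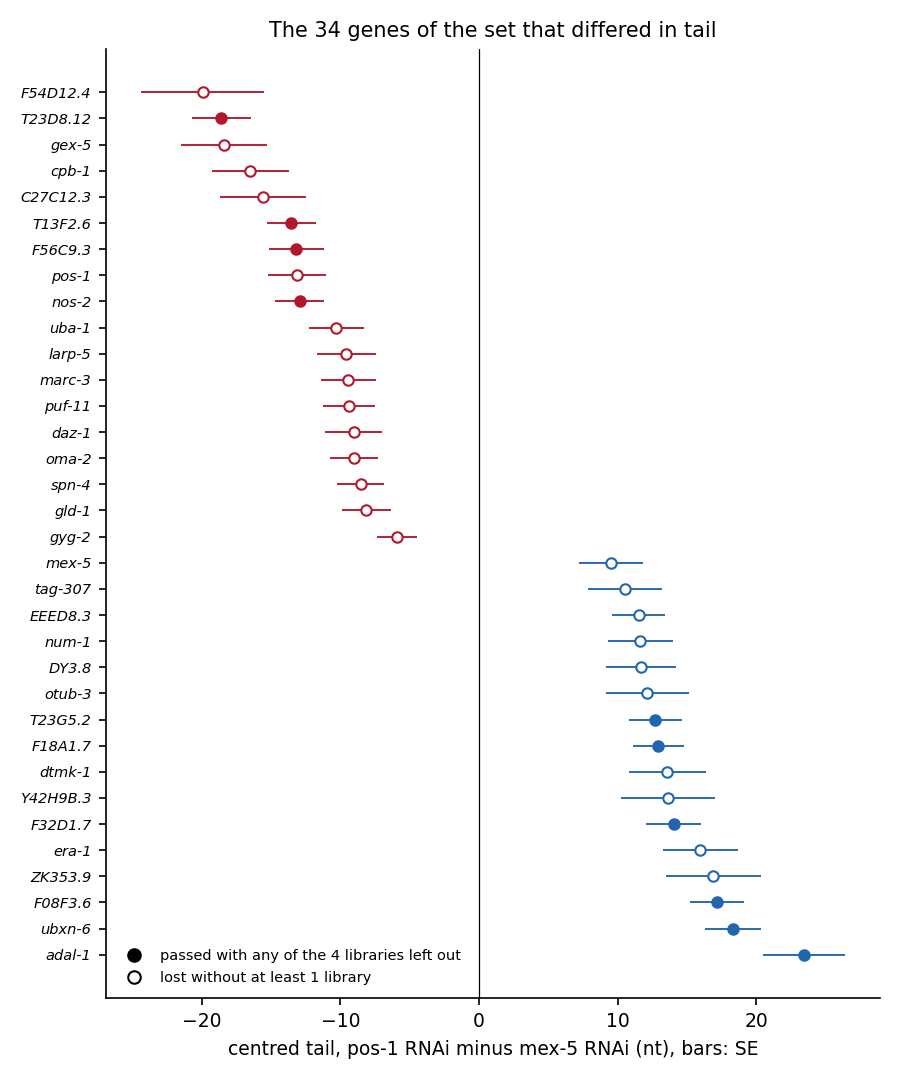
Library-centred tail difference of pos-1 RNAi minus mex-5 RNAi (x axis, nt) with its SE (bars) for the 34 genes of the set that passed in limma, shortest at the top. Filled points (10 genes) passed with any of the 4 libraries left out, open points were lost without at least 1; 18 genes are shorter and 16 longer in pos-1 RNAi.

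Against N2, mex-5 RNAi changed the tails of 15 genes of the set in limma (2.21% of all genes passed), 8 longer (0.827% of all genes) and 7 shorter (1.39%). On tails that were not centred the count was 6, all longer. Both groups are among those that the rule averaged, so these calls too draw on values that chose the genes. Longer were spn-4 (8.37 nt), nos-2 (8.20 nt), pos-1 (8.97 nt), larp-5, uba-1, the membrane ubiquitin ligase gene marc-3 (11.6 nt), T13F2.6 and the 58-bp noncoding feature T23D8.12. Shorter were F08F3.6, T23G5.2, DY3.8, the collagen gene col-48 (-22.3 nt), the meiotic gene rec-1, F32D1.7 and mex-5 (-10.1 nt). Only F08F3.6 passed whichever library was left out, with a difference of -13.9 nt (SE 1.97 nt, limma adjusted p = 0.00467, up to 0.0433). The count was 7 without mex-5 RNAi replicate 1, 4 without mex-5 RNAi replicate 2, 7 without N2 replicate 1 and 5 without N2 replicate 2.

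Neither pos-1 RNAi nor mex-6(pk440) gave a gene of the set that passed against N2 in limma, where 0.0671% and 0% of all genes passed. At an unadjusted p under 0.05 there were 42 in pos-1 RNAi (18.1% of the set, 11.9% of all genes) and 14 in mex-6(pk440) (6.03% of the set, 4.60% of all genes). In pos-1 RNAi the smallest adjusted p was 0.0714, for ubxn-6 (72.4 and 73.2 nt with pos-1 RNAi, against 62.9 and 53.9 nt in N2) and for F18A1.7 (52.4 and 54.1 nt, against 43.7 and 36.7 nt in N2). Neither overlapped its N2 libraries. Without N2 replicate 1, 5 genes passed. In mex-6(pk440) the smallest adjusted p was 0.607.

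Read counts are another readout of the same libraries, which the rule used only as a floor. In gld-2 RNAi the genes with shorter tails also tended to have fewer reads than in N2: 79 fell and 7 rose in edgeR's quasi-likelihood test with Benjamini-Hochberg adjustment. The 79 are 34.1% of the set, where 12.8% of all 9403 genes tested and 17.2% of the 4474 genes that could enter fell, and 27.2% of all genes changed either way (14.4% rose). The median log2 change was -0.52 in the set and -0.19 over the 4474 genes. Against the same N2 libraries the median of the set was also the lower in every other group. It was -0.15 against -0.01 in gld-3 RNAi and -0.08 against 0.06 in pos-1 RNAi. In mex-5 RNAi it was -0.36 against -0.09, and in mex-6(pk440) -0.13 against -0.01. Since these are bulk embryos, fewer cells with a transcript and less of it in each cell cannot be told apart.

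The genes that fell in gld-2 RNAi hold many of the maternal regulators above. All 4 chosen KH, RRM and TRIM genes, cpb-1 and cpb-3, both B-type cyclins and puf-11 were among them, with pie-1 and oma-2 of the CCCH genes, nos-2 and meg-1 of the germ lineage genes, zif-1 and mpk-1 of the oocyte-to-embryo genes, apx-1 and neg-1. Listed genes outside the set fell too: 5 of 7 Pumilio-family genes fell, among them puf-3, puf-5, puf-6 and puf-7, as did 7 of 13 P granule and germ lineage genes, 5 of the 11 genes listed with CGH-1, and oma-1, rnp-1, rnp-8 and fog-1. Calls of mex-3, meg-1 and apx-1 were lost whichever library was left out, and those of pie-1, neg-1, cpb-3, cpb-1, daz-1 and mpk-1 without at least 1 of them (edgeR adjusted p up to 0.357). For gld-1 the values were 142 and 147 CPM in gld-2 RNAi, against 486 and 506 CPM in N2, a log2 change of -1.78 (SE 0.19, edgeR adjusted p = 0.000151). No gld-2 RNAi library came near any other group for gld-1, whose lowest value elsewhere was 248 CPM. For nos-2 they were 42.3 and 46.2 CPM in gld-2 RNAi, against 126 and 182 CPM in N2 (log2 change -1.80, SE 0.22, edgeR adjusted p = 0.000253).

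Also lower in gld-2 RNAi were memi-2, with 10.6 and 10.2 CPM against 43.7 and 44.2 CPM in N2 (log2 change -2.08), puf-11, with 54.6 and 68.7 CPM against 208 and 225 CPM in N2 (-1.81), and spn-4, with 79.8 and 80.4 CPM against 234.8 and 276.7 CPM in N2 (-1.67). In none of the 3 did the groups overlap. The Notch target sygl-1 of germline stem cells (-1.59), the crossover gene xnd-1 (-2.31), the piRNA gene tofu-5 (-1.63), the glycogenin gene gyg-2 (-1.53), marc-3 (-1.83) and zif-1 (-1.17) fell as well. Each gene with values in this and the last paragraph passed whichever of the 4 libraries was left out. Among the 7 that rose was col-48, with 37.2 and 57.4 CPM in gld-2 RNAi, against 6.53 and 9.92 CPM in N2 (log2 change 2.54, SE 0.32, edgeR adjusted p = 0.000253).

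Other transcripts moved in the same libraries. Summed CPM of the larval and late embryo tissue markers was 1206 to 1313 in gld-2 RNAi, against 661 to 679 in N2, and that of the yolk and adult intestine markers 557 to 576, against 272 to 429 in N2. Sperm markers summed to 183 to 198 CPM, against 153 to 217 CPM in N2. Of these lists 13 of 15, 9 of 12 and 28 of 30 genes were in the tables, and none was at 0 in every library. The 9 early embryo markers, 6 of them in the set, summed to 1341 to 1416 CPM in gld-2 RNAi and 2108 to 2379 CPM in N2. Their sum was below N2 in the other groups too. It was 1639 to 1751 CPM in gld-3 RNAi and 1446 to 1551 CPM in pos-1 RNAi. In mex-5 RNAi it was 1437 to 1449 CPM, and in mex-6(pk440) 1892 to 2040 CPM. These markers include pos-1 and mex-5, so the sums in pos-1 RNAi and mex-5 RNAi also hold the loss of the targeted gene. The pos-1 gene had 132 and 42.8 CPM in pos-1 RNAi, against 506 and 626 CPM in N2. The mex-5 gene had 38.6 and 34.3 CPM in mex-5 RNAi, against 457 and 449 CPM in N2. Of the 6 eggshell and oocyte surface genes, none in the set, 5 fell in gld-2 RNAi (median log2 change -1.80). The part of any of these in the lower counts was not tested. The count of called genes was 31 without gld-2 RNAi replicate 1, 35 without gld-2 RNAi replicate 2, 52 without N2 replicate 1 and 46 without N2 replicate 2, and 23 genes passed in every such fit.

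Against N2 11 genes of the set fell in gld-3 RNAi and 8 rose in edgeR (8.19% of the set), where 8.08% of all genes tested changed, 4.02% lower and 4.06% higher, and the median log2 change was -0.15. At an unadjusted p under 0.05 in edgeR there were 68 (29.3% of the set, 24.4% of the genes that could enter). Sperm markers summed to 32.5 to 43.3 CPM in gld-3 RNAi, against 153 to 217 CPM in N2, yolk and adult intestine markers to 148 to 172 CPM, against 272 to 429 CPM in N2, and larval and late embryo markers to 738 to 753 CPM, against 661 to 679 CPM in N2. Their part in the changed counts was not tested. The 2 that passed whichever library was left out were memi-2, with 18.4 and 16.3 CPM in gld-3 RNAi, against 43.7 and 44.2 CPM in N2 (log2 change -1.34, SE 0.21, edgeR adjusted p = 0.00394), and puf-11, with 92.1 and 82.1 CPM in gld-3 RNAi, against 208 and 225 CPM in N2 (-1.31, SE 0.23, adjusted p = 0.00543). Both were separate from N2. The call of marc-3 (-1.69) was lost without N2 replicate 2 (edgeR adjusted p = 0.0501), and those of spn-4 (-1.15), cyb-2.1 (-1.48), cyb-2.2 (-1.30) and memi-1 (-1.40) were lost without gld-3 RNAi replicate 2 and without an N2 library, replicate 1 for cyb-2.1 and replicate 2 for the others (adjusted p up to 0.109). The count was 18 when gld-3 RNAi replicate 1 was left out, 4 when gld-3 RNAi replicate 2 was, 10 when N2 replicate 1 was and 4 when N2 replicate 2 was. It was 3 with the 4 libraries of the comparison alone.

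The count difference between the knockdowns was tested directly. In gld-3 RNAi 22 genes of the set were higher and 1 lower than in gld-2 RNAi in edgeR, and the higher ones are 9.48% of the set, where 4.46% of all genes tested and 5.50% of those that could enter were higher. Of all genes tested 10.8% changed either way (6.31% fell). The median log2 difference was 0.34 in the set and 0.17 over the 4474 genes. For gld-1 the levels were 383 and 349 CPM in gld-3 RNAi and 142 and 147 CPM in gld-2 RNAi (log2 difference 1.34, SE 0.19, edgeR adjusted p = 0.00151). For nos-2 they were 104 and 121 CPM in gld-3 RNAi and 42.3 and 46.2 CPM in gld-2 RNAi (1.35, SE 0.22, adjusted p = 0.00299), and for sygl-1 182 and 182 CPM in gld-3 RNAi and 69.5 and 78.0 CPM in gld-2 RNAi (1.31, SE 0.19, adjusted p = 0.00198). The libraries of the knockdowns were wide apart in each. These genes, with Y18D10A.11 (1.59), gyg-2 (1.52), T21C9.13 (1.31) and Y4C6A.3 (1.20), passed whichever library was left out.

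As deposited, tail and count did not go together in every such gene. Deposited tails of gld-1 were 25.6 and 26.2 nt with gld-3 RNAi and 30.1 and 28.3 nt with gld-2 RNAi, so on that scale the knockdown with the shorter tails had more reads. Those of nos-2 were 25.6 and 26.3 nt with gld-3 RNAi and 23.2 and 22.7 nt with gld-2 RNAi. Neither tail difference passed. After centring the gld-1 libraries of the knockdowns overlapped, so which had the shorter gld-1 tails is not settled. The neg-1 transcript was higher in gld-3 RNAi (39.2 and 28.7 CPM) than in gld-2 RNAi (17.1 and 13.3 CPM), with a log2 difference of 1.15 (SE 0.27, edgeR adjusted p = 0.0149), and it too had the shorter tails there. That call was lost without gld-2 RNAi replicate 1, gld-2 RNAi replicate 2 or gld-3 RNAi replicate 1 (adjusted p up to 0.101). Calls fell to 8 without gld-2 RNAi replicate 1 and to 14 without gld-3 RNAi replicate 1. Of the 6 eggshell and oocyte surface genes 4 were also higher in gld-3 RNAi. Larval and late embryo markers summed to 738 to 753 CPM in gld-3 RNAi, against 1206 to 1313 CPM in gld-2 RNAi, yolk and adult intestine markers to 148 to 172 CPM, against 557 to 576 CPM in gld-2 RNAi, and sperm markers to 32.5 to 43.3 CPM, against 183 to 198 CPM in gld-2 RNAi. The part of any of these in the difference was not tested.

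**Figure D5:**
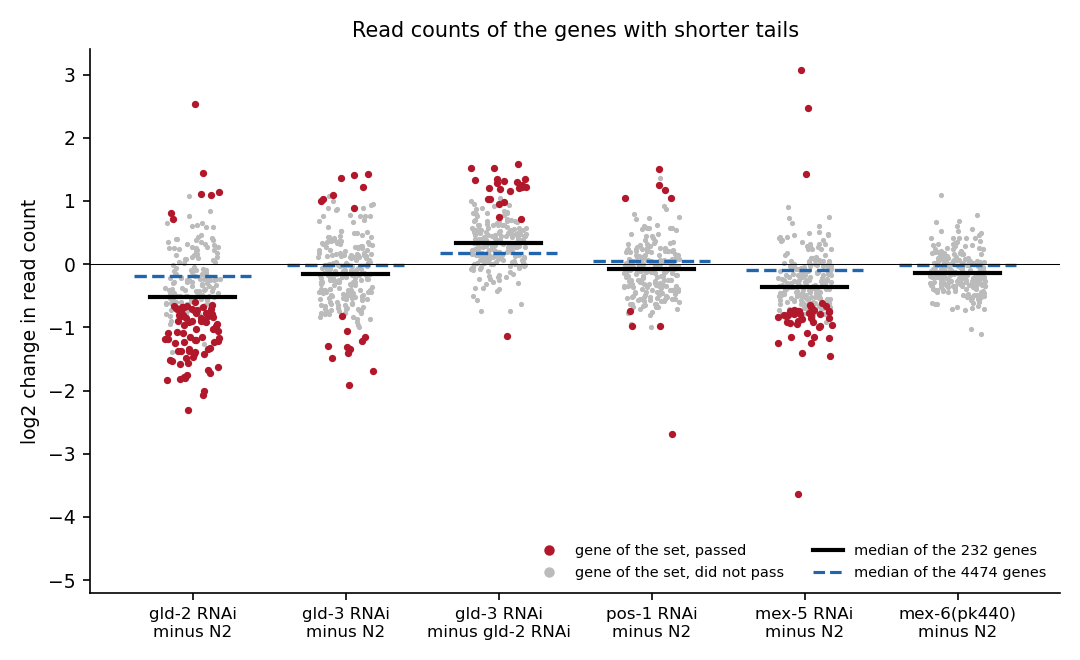
log2 change in read count (y axis) of the 232 genes in 6 comparisons (x axis), 1 point per gene, red where the gene passed in edgeR's quasi-likelihood test; solid bars are medians of the 232 genes and dashed bars medians of the 4474 genes that could enter. The median of the set is lowest in gld-2 RNAi minus N2 (-0.52), and it is above that of the 4474 genes in gld-3 RNAi minus gld-2 RNAi (0.34 against 0.17); 5 of the 6 comparisons share N2 libraries.

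In mex-5 RNAi 40 genes of the set fell and 3 rose against N2 in edgeR. The 40 are 17.2% of the set, where 12.5% of all genes tested and 11.1% of those that could enter fell, and 30.8% of all changed either way, 18.4% higher. The median log2 change was -0.36, against -0.09 over the 4474 genes. Beside the targeted mex-5, with 38.6 and 34.3 CPM in mex-5 RNAi, against 457 and 449 CPM in N2, and the related mex-6 (24.0 and 14.9 CPM, against 205 and 244 CPM in N2), era-1 fell (59.3 and 73.8 CPM in mex-5 RNAi, against 185 and 168 CPM in N2, log2 change -1.41, SE 0.23, edgeR adjusted p = 0.0005), and so did neg-1 (12.1 and 8.94 CPM, against 31.5 and 26.3 CPM in N2, -1.45, SE 0.28, adjusted p = 0.00163). The groups did not overlap for either. The genes apx-1 (-1.25), gld-1 (-0.97) and T21C9.13 (-0.95) fell, and col-48 (3.07), F49E2.5 (2.46) and C35B1.5 (1.42) rose, all of them whichever library was left out.

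Larval and late embryo tissue markers summed to 2183 to 2426 CPM in mex-5 RNAi, against 661 to 679 CPM in N2, yolk and adult intestine markers to 376 to 389 CPM, against 272 to 429 CPM in N2, and sperm markers to 13.7 to 16.3 CPM, against 153 to 217 CPM in N2. Their part in the changed counts was not tested. The count of called genes was 25 without mex-5 RNAi replicate 1, 16 without mex-5 RNAi replicate 2, 27 without N2 replicate 1 and 20 without N2 replicate 2.

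In pos-1 RNAi 38 genes of the set had an unadjusted p under 0.05 in edgeR against N2 (16.4%, against 23.5% of the genes that could enter). After adjustment 9 genes of the set changed in count (5 higher, 4 lower, 3.88% of the set), where 12.2% of all genes tested changed, 4.69% higher and 7.52% lower. Of these pos-1, the targeted gene, passed whichever library was left out, with 132 and 42.8 CPM in pos-1 RNAi, against 506 and 626 CPM in N2 (log2 change -2.69, SE 0.38, edgeR adjusted p = 0.00167). The count was 5 without pos-1 RNAi replicate 1, 2 without pos-1 RNAi replicate 2, 4 without N2 replicate 1 and 1 without N2 replicate 2. Yolk and adult intestine markers summed to 35.0 to 89.6 CPM in pos-1 RNAi, against 272 to 429 CPM in N2, and sperm markers to 36.7 to 60.99 CPM, against 153 to 217 CPM in N2; their part in the changed counts was not tested. In mex-6(pk440) no gene of the set passed in edgeR, where 0.0213% of all genes did. Of the set 14 had an unadjusted p under 0.05 (6.03%, against 7.06% of the genes that could enter). DESeq2 called 1 of the set, among 70 genes in all. The comparisons with N2 share its libraries, so their values are given side by side without an overlap.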

How the data were processed

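PAT-seq tables of 12 libraries were used. The read counts per gene and per polyadenylation peak are raw counts deposited by the authors, and the tails are mean poly(A) lengths in nt deposited by the authors per gene and peak. No source used here says how those means were computed. Bowtie2 2.2.2 and genome build ce10 are named in the submitters' processing notes, and peaks came from nesoni, per the file headers' source column. Every value column belonged to a sample here.

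Tails were centred on each library's median over the 4474 genes with at least 30 reads and a tail value in all 12 libraries. limma 3.58.1 (R 4.3.3, variance trend on log2 mean reads) tested centred tails over these 4474 genes, and edgeR 4.0.16 (filterByExpr, TMM, quasi-likelihood) tested the counts of 9403 genes. Both fits held 1 coefficient per group over all 12 libraries, were two-sided and used a Benjamini-Hochberg adjusted p under 0.05, adjusted within each comparison. CPM are TMM-scaled, and an SE of a log2 count change is the change divided by the root of its F. Precision is limited by 2 libraries a group. On simulated data limma found 32 and 82 of 100 genes changed by 10 and 20 nt in gld-3 RNAi minus gld-2 RNAi (4474 genes, 6 false calls), and edgeR 20 and 90 of 100 genes changed 2-fold and 4-fold in gld-3 RNAi minus N2 (9403 genes, 6 false calls). Replicates differed beyond sampling noise in every group (chi-square per degree of freedom 16.3 to 51.0).

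Names came from the gene file and a RefSeq table used for names, biotypes and lengths only. The gene set, gene lists and tests were chosen with earlier results of these data known. Named genes are the 15 symbolled genes with the largest drop, up to 4 per gene list, the 6 study genes, up to 6 with the smallest p per comparison, those nearest the threshold and the extremes of gld-3 RNAi minus gld-2 RNAi; other names, and members given as examples of a called group or of peak usage, were chosen after their values were seen. Alternatives were filters on reads, uncentred, log2 or read-weighted tails, DESeq2 1.42.0, RLE scaling, a replicate block, fits to 4 libraries and leaving out each library. Sequences were not used here.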

Additional observations from a re-analysis of the deposited data

Results flagged for a closer look

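The 6 genes of the set with the smallest p for read count between the knockdowns stood out because the difference between gld-3 RNAi and gld-2 RNAi was itself tested and passed. In edgeR's quasi-likelihood test their log2 differences were 1.59 for Y18D10A.11, 1.34 for gld-1, 1.31 for sygl-1, 1.52 for gyg-2, 1.31 for T21C9.13 and 1.35 for nos-2. Levels of Y18D10A.11 were 124 and 93.2 CPM in gld-3 RNAi and 35.5 and 36.7 CPM in gld-2 RNAi, and those of gyg-2 were 625 and 713 CPM in gld-3 RNAi and 195 and 272 CPM in gld-2 RNAi. All 6 were higher in both gld-3 RNAi libraries than in both gld-2 RNAi libraries.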

How the results depend on the processing

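The set numbered 103 with at least 100 reads in every library, 112 on uncentred tails, 376 with replicate 1 alone and 419 with replicate 2 alone (reads and tails then being needed in those libraries only, not in all 12), and 212 to 281 with any 1 library left out. For tails, gld-3 RNAi minus gld-2 RNAi gave 2 genes with log2 tails and 0 to 2 without 1 library; pos-1 RNAi minus N2 gave 2 at 100 reads, 4 with read weights, 1 with the replicate block and 0 to 5 without 1 library. For mex-5 RNAi minus N2 the tail count was 6 uncentred, 5 with 4 libraries and 4 to 7 without 1 library, and for pos-1 RNAi minus mex-5 RNAi 17 uncentred and 11 to 25. Counts without 1 library ran from 31 to 52 (gld-2 RNAi minus N2), 4 to 18 (gld-3 RNAi minus N2), 8 to 21 (gld-3 RNAi minus gld-2 RNAi), 1 to 5 (pos-1 RNAi minus N2) and 16 to 27 (mex-5 RNAi minus N2). With 4 libraries gld-3 RNAi minus N2 gave 3 and pos-1 RNAi minus N2 gave 3; without a count filter gld-3 RNAi minus gld-2 RNAi gave 37; DESeq2 gave 1 in mex-6(pk440) minus N2. No gene of the set that passed in a main fit changed direction in that comparison, and the direction of other genes was not checked. Fits without 1 library have fewer residual degrees of freedom, and the lone library of a group is assumed to vary like the others. The cause of the other shifts was not tested.

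The replicate block gave count calls of 101, 32, 29, 17, 55 and 0 in gld-2 RNAi minus N2, gld-3 RNAi minus N2, gld-3 RNAi minus gld-2 RNAi, pos-1 RNAi minus N2, mex-5 RNAi minus N2 and mex-6(pk440) minus N2, and tail calls of 0, 1, 16, 0 and 34 in gld-3 RNAi minus gld-2 RNAi, pos-1 RNAi minus N2, mex-5 RNAi minus N2, mex-6(pk440) minus N2 and pos-1 RNAi minus mex-5 RNAi. Against 19 and 9 without it, the block count calls of gld-3 RNAi minus N2 and pos-1 RNAi minus N2 moved by over 1.5 times. Deviations of same-numbered libraries correlated from -0.22 to 0.31 in tails (median 0.01, over 0.1 in 7 of 15 pairs of groups) and from -0.15 to 0.46 in counts (median 0.20, over 0.1 in 9 of 15). As not every pair passed 0.1 and no label says that the numbers mark a shared source, they were not taken as pairs.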
